A study of Mus musculus with 12 samples.

Results

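The genes described are the 9 alpha subunits of the voltage-gated calcium channels Cacna1a, Cacna1b, Cacna1c, Cacna1d, Cacna1e, Cacna1g, Cacna1h, Cacna1i and Cacna1s, out of 21924 protein-coding genes. For each gene the regions overlapping its GENCODE body plus 20 kb on either side were taken, which gave 48 of the 31617 H3K27ac regions and 39 of the 28047 H3K27me3 regions. The genes were selected on earlier results of the same young and old columns, in which an H3K27ac region of Cacna1c stood out, so that region is given as a description and supports nothing else. The remaining alpha subunit, the retinal L-type gene Cacna1f, was kept among the partner genes.

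Voltage-gated calcium channels open when the membrane depolarises and let calcium into the cell. Each channel is built around an alpha subunit, which forms the pore and carries the voltage sensor, and is joined by beta and alpha2delta subunits that set its surface level and gating. The alpha subunits fall into the L-type channels of muscle contraction and excitation-coupled transcription (Cacna1s, Cacna1c and Cacna1d), the P/Q-, N- and R-type channels of neurotransmitter release (Cacna1a, Cacna1b and Cacna1e) and the low-voltage T-type channels (Cacna1g, Cacna1h and Cacna1i). Acetylation of lysine 27 on histone H3 (H3K27ac) marks active promoters and enhancers, whereas trimethylation of the same residue (H3K27me3) is set by Polycomb at silent developmental and lineage-restricted genes, and a given residue carries only one of these marks. These channels are best known from excitable cells rather than from mesenchymal stem cells (MSCs), the stromal progenitors of bone and fat. Their expression in the cells profiled was not measured here.

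The data were CUT&RUN profiles of both marks, a method in which an antibody tethers a nuclease that cuts out the marked DNA, from mouse MSCs of 2 ages, 3 to 5 months (young) and 18 to 22 months (old), with 3 samples per age and mark and 12 libraries in all. All cells were grown under 2% O2, and per the labels the cells of each sample were divided between the antibodies. The labels give no sex, strain or knockout and do not say whether samples came from separate animals, so the p-values below measure the spread between these samples only. In a bulk profile of this kind, a mark in fewer cells and less of the mark per cell cannot be told apart.

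Library depth ran from 2750953 to 5541429 reads for H3K27ac and from 3622108 to 9947515 for H3K27me3, and old replicate 2 was the shallowest library of both marks. The share of H3K27me3 reads in regions was 62.3%, 66.6% and 66.6% in young and 60.8%, 59.6% and 53.8% in old libraries. It was thus lower in every old library. In H3K27ac it was 41.4%, 33.7% and 40.0% against 33.4%, 34.6% and 39.2%, which overlap. Whether this share affects the differences with age was not tested. All 8 MSC markers examined (Ly6a, Pdgfra, Pdgfrb, Thy1, Eng, Nt5e, Cd44 and Itgb1) had H3K27ac within 1 kb of a transcription start site (TSS) and 1 of 8 had H3K27me3, whereas 0 of 5 neuronal and 0 of 6 muscle markers had H3K27ac there and all of both lists had H3K27me3. Of 7 blood and endothelial markers, Pecam1 alone had H3K27ac at the TSS, at a scaled signal of 7.23 in young and 8.78 in old cells, and 5 had H3K27me3. The lowest MSC marker in H3K27ac, Nt5e, was near this at 9.67 in young and 13.2 in old cells. Nt5e was also the MSC marker with H3K27me3 (9.52 and 10.6). These signals are not corrected for region length.

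Values below are scaled signal, which is the reads in a region relative to the size of the library and to a constant 0.5 kb, scaled between libraries of a mark. Since regions run from 0.5 kb to 250 kb in length, levels were compared between places only per kb of region, in reads per kb of region scaled to library size. Differences are log2 old over young with their standard error (SE) from limma, which was fitted over the whole table of a mark, and a difference was called at an adjusted p under 0.05.

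The channel genes carried more H3K27me3 than the median long gene, and most carried less H3K27ac. H3K27me3 regions covered a median of 64.6% of the 9 gene bodies, against a median of 0.121% over 5003 protein-coding genes of at least 50 kb, and H3K27ac regions covered 5.04% against 12.2%. The H3K27me3 share of each channel gene exceeded that of 63.9% (Cacna1g) to 96.3% (Cacna1s) of these genes. Cacna1s, the skeletal muscle channel, lay wholly inside one H3K27me3 domain (100% of its body), and Cacna1d (94.6%), Cacna1h (93.3%) and Cacna1b (81.2%) were nearly as covered. Cacna1i (64.6%) and Cacna1a (63.3%) were intermediate. Cacna1e (28.2%), Cacna1c (21.1%) and Cacna1g (10.8%) were covered least. In 7 of 9 channel genes H3K27me3 covered more of the body than H3K27ac did, as it did in 39.7% of all genes of that size and in 7 of 8 voltage-gated sodium channel alpha subunits, a like family of excitable cells. Cacna1c was one exception, with 26.5% of its body under H3K27ac, and Cacna1g had nearly equal shares (10.9% and 10.8%).

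**Figure D1:**
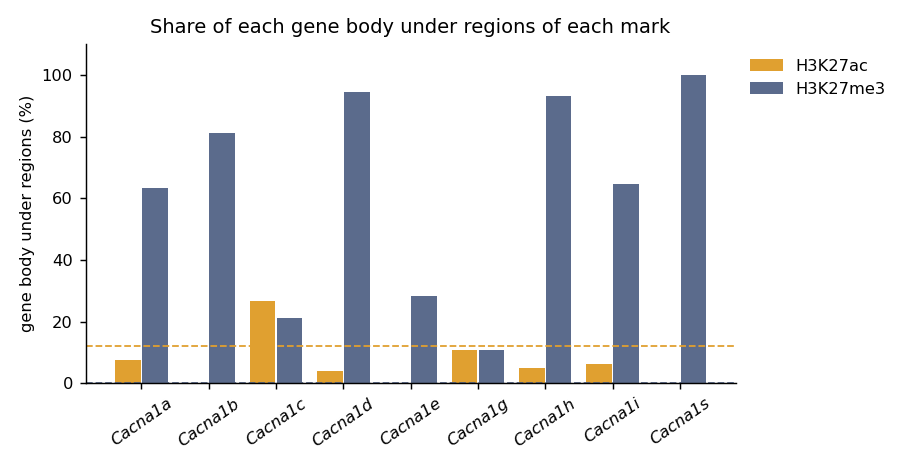
Share of each gene body, in percent, under H3K27ac regions (orange bars) and H3K27me3 regions (blue-grey bars); dashed lines are the medians over all protein-coding genes of at least 50 kb, 12.2% for H3K27ac and 0.121% for H3K27me3. H3K27me3 exceeds H3K27ac in every channel gene but Cacna1c and Cacna1g.

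The start sites showed the same layout. Of 28 annotated TSSs of the 9 genes, 14 lay under H3K27me3 alone, 3 under H3K27ac alone, 4 under both marks and 7 under neither. All 4 that carried both belonged to Cacna1c, in an internal CpG-rich cluster on chromosome 6 from 119107975 to 119108573 inside the gene, while the 3 most upstream Cacna1c starts and 3 further ones were unmarked. Cacna1d was divided, with H3K27ac over its upstream TSS at 30491156 on chromosome 14 and H3K27me3 over both starts near 30353009. The Cacna1g starts lay under H3K27ac, with an H3K27me3 region beginning 0.803 kb upstream. The annotated starts of Cacna1a, Cacna1b, Cacna1h, Cacna1i and Cacna1s all lay under H3K27me3 alone, as did 2 of 3 starts of Cacna1e.

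The promoters below are shown because they hold each of these states, 5′ to 3′ on the minus strand of the gene, with every CG dinucleotide in capitals. The sequences are those of RefSeq on GRCm38.p6, up to 250 bases before the start and without annotated exons, and 9 promoters of 6 of the 9 genes had an entry. The number of CG dinucleotides in the 250 bases was 29 in Cacna1b, 48 in the internal Cacna1c promoter and 50 in the internal Cacna1d promoter. Over all 32851 promoters the median was 6, and 6.78%, 0.186% and 0.0944% had at least as many as these 3. The H3K27me3-marked promoters not shown had fewer, with 16 in Cacna1i, 9 in Cacna1s and 6 in Cacna1e, so CG-rich and ordinary promoters both lay under this mark. The upstream promoters of Cacna1c, unmarked, and Cacna1d, under H3K27ac, had 2 each, a number that 81.2% of promoters reached.
Cacna1c upstream, no mark, chr6:119196419-119196659: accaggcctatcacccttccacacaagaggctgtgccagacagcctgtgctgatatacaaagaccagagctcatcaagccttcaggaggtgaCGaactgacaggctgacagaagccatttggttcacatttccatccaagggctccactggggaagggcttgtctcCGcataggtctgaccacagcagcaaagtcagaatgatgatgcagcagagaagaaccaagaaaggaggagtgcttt
Cacna1c internal, both marks, chr6:119108574-119108745: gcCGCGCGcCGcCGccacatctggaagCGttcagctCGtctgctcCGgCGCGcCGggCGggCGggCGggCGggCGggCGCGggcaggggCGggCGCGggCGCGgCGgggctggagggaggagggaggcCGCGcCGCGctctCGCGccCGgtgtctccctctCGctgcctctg
Cacna1d upstream, H3K27ac, chr14:30491157-30491406: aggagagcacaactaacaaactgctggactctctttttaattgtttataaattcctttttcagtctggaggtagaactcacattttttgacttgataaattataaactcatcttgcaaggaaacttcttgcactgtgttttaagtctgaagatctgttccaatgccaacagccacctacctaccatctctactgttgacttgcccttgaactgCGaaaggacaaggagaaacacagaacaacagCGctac
Cacna1d internal, H3K27me3, chr14:30353487-30353736: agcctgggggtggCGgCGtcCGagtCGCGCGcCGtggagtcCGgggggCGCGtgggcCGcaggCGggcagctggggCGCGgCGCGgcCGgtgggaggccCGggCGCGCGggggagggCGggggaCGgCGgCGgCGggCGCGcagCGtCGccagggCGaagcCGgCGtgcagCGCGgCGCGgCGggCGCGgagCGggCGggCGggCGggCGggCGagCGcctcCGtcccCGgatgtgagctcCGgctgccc
Cacna1b, H3K27me3, chr2:24763153-24763402: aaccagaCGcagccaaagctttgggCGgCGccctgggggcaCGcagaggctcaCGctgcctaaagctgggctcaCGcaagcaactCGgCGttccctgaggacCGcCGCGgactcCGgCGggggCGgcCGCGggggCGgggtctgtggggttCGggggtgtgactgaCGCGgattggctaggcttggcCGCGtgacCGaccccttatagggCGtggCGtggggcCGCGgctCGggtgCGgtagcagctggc

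Cacna1c encodes the L-type channel of heart and smooth muscle, and was the member in which H3K27ac regions were most numerous and spread along the gene (chromosome 6 from 118587240 to 119196418, minus strand). Its 30 H3K27ac regions, all overlapping the gene body, covered 161.5 kb, with a median length of 4 kb. Only 1 of them lay at a TSS and 8 overlapped an H3K27me3 region. The 8 H3K27me3 regions covered 141.5 kb, mostly a 52 kb domain just inside the upstream end, the 15 kb over the internal TSSs, and a 42 kb domain in the middle of the gene.

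Summed over the Cacna1c window, H3K27ac scaled signal was 265, 328 and 374 in the young libraries and 346, 424 and 367 in the old. Young replicate 3 lay above 2 old libraries, so the groups overlapped. The log2 difference was 0.24 (SE 0.11), with an unadjusted p of 0.0474 and an adjusted p of 0.449 by limma. Without young replicate 3 it became 0.36 (adjusted p = 0.0437 by limma), and without young replicate 1 it was 0.11. This window includes the region known when the genes were chosen, so its p-values are a description and support nothing else. Of the 30 H3K27ac regions, 23 had a higher mean log2 signal in old cells and 7 a lower one, with a median difference of 0.29, against a median of -0.0028 and 49.6% higher over all H3K27ac regions. Without the region known when the genes were chosen, 22 of 29 were higher and 7 lower, with a median of 0.28. The window sums without it were 263, 325 and 370 in young and 339, 406 and 358 in old libraries, a difference of 0.21 in mean log2 signal. These regions share 6 libraries and are not independent. In the 18 H3K27ac regions of the other members, 8 were higher and 10 lower, with a median of -0.0078.

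H3K27me3 over the same window gave a difference of the other sign, within the spread. Its scaled signal was 320, 309 and 275 in young and 316, 231 and 268 in old libraries, and the log2 difference was -0.16 (SE 0.10, adjusted p = 0.487 by limma). It was -0.044 without old replicate 2 and -0.27 without old replicate 1. All 8 H3K27me3 regions had a negative difference, from -1.19 to -0.011, where 48.6% of all H3K27me3 regions had a positive one. These regions share the same libraries and are not independent. The value of -0.011, at the TSS, ran from -0.078 to 0.11 when each library was left out in turn. The low value of old replicate 2 (231) stood beside its high H3K27ac value (424), and the low H3K27ac value of young replicate 1 (265) beside the highest H3K27me3 value (320). Over all 6 sample pairs the Pearson correlation of the marks was -0.85 (adjusted p = 0.0889 by permutation) and the Spearman correlation -0.89 (adjusted p = 0.267 by permutation). The H3K27ac sums include the region known when the genes were chosen. Both ages are pooled, so a difference with age in each mark would enter the correlation. These values are therefore a description and support nothing else. Old replicate 2 was the shallowest library of both marks.

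**Figure D2:**
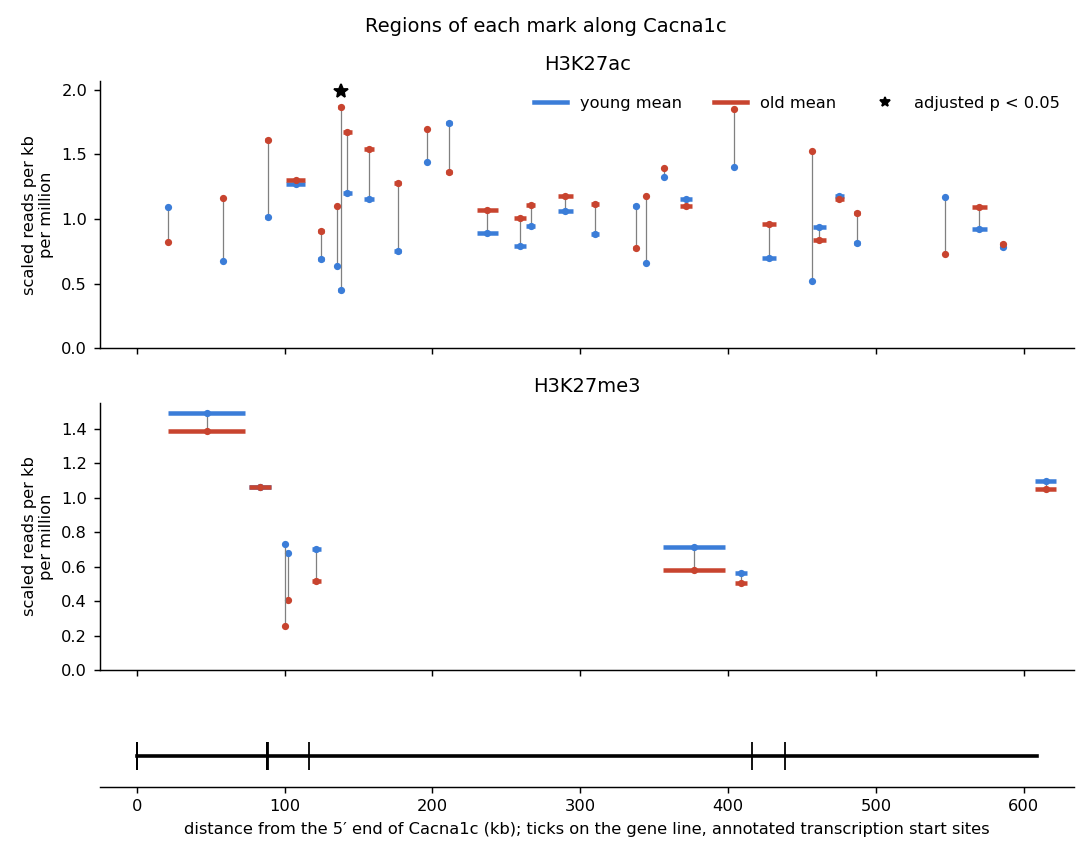
Mean level of each Cacna1c region, in reads per kb of region scaled to library size, for young (blue) and old (red) libraries against the distance in kb from the 5′ end of the gene; bar length is the region's extent, grey lines join the ages, and ticks on the gene line are annotated TSSs. H3K27ac is spread along the gene with old above young in 23 of 30 regions, and the star marks the single region with an adjusted p under 0.05.

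A single member region was called in either mark, the Cacna1c H3K27ac region on chromosome 6 from 119057001 to 119060000, 136 kb from the 5′ end of the gene over annotated exon, UTR and intron sequence. Its scaled signal was 1.63, 2.89 and 3.62 in young and 6.38, 18.1 and 9.17 in old libraries. Every old library lay above every young library, and old replicate 2 was the highest. The log2 difference was 1.79 (SE 0.37, adjusted p = 0.032 by limma) on 5, 5 and 11 reads in young and 16, 23 and 18 reads in old libraries. This is the value known when the members were chosen, and it is a description. EdgeR called it too, and DESeq2 gave it no adjusted p. Of all H3K27ac regions, 0.0316% were called higher in old cells and 0.0506% lower. Leaving out old replicate 2 gave 1.40 (adjusted p = 0.263), leaving out young replicate 1 gave 1.52 (adjusted p = 0.335), and leaving out young replicate 2, young replicate 3 or old replicate 3 gave adjusted p-values of 0.0774, 0.0507 and 0.0604 by limma.

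The deposited region names carry the ages in which a region was detected, and the called one carries the old label alone. It abuts without a gap a 6 kb region before it and a 1.5 kb region after it that were both detected at either age. In the 6 kb neighbour the scaled signal was 12.4, 13.3 and 17.4 in young and 15.9, 22.8 and 21.4 in old libraries, with a log2 difference of 0.47 (SE 0.21, adjusted p = 0.464 by limma). In the 1.5 kb neighbour it was 2.29, 1.15 and 2.30 against 2.39, 3.93 and 3.57, with 2 to 7 reads in each library. Joined into a single 10.5 kb region, an alternative chosen after seeing the data, the values were 16.3, 17.3 and 23.4 in young and 24.7, 44.8 and 34.1 in old libraries. The groups stayed apart, the log2 difference was 0.82 (SE 0.19), and the adjusted p of 0.0925 by limma missed the threshold.

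Other Cacna1c regions showed smaller differences, none of them called. The internal TSS carried H3K27ac of 6.53, 6.35 and 11.5 in young and 10.8, 19.7 and 8.15 in old libraries (log2 difference 0.59, SE 0.29, adjusted p = 0.523 by limma). Without old replicate 2 that difference was 0.24. H3K27me3 over the same TSS was 31.0, 33.4 and 31.1 in young and 34.7, 26.7 and 33.9 in old libraries, with a log2 difference of -0.011 (SE 0.13). The marks were therefore both measured at this TSS at either age, and whether they sat on the same alleles or in different cells was not tested. The H3K27ac region with the largest summed signal, 13 kb long from 119082501 to 119095500, was 21.6, 35.2 and 42.1 in young and 29.9, 38.5 and 33.1 in old libraries (log2 difference 0.083, SE 0.18). The 52 kb H3K27me3 domain from 119123001 to 119175000 held most of the Cacna1c H3K27me3, 149, 161 and 155 in young and 160, 133 and 139 in old libraries (log2 difference -0.11, SE 0.092, adjusted p = 0.653 by limma).

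Besides the called region, the Cacna1c H3K27ac regions with the largest differences among those whose groups did not overlap were both intronic and shallow. From 118851001 to 118853000 the scaled signal was 2.61, 2.31 and 2.96 in young and 4.78, 4.72 and 4.59 in old libraries, on 4 to 9 and 6 to 12 reads (log2 difference 0.74, SE 0.40, adjusted p = 0.566 by limma). The 0.5 kb region from 118739501 to 118740000 held 0, 1 and 3 reads in young and 5, 2 and 2 in old libraries, with means of both ages at or under the floor of 3 reads, so no fold is given. In H3K27me3, the 2.5 kb region from 119095001 to 119097500 did not overlap between the ages. It was 5.33, 3.02 and 2.62 in young and 1.09, 1.14 and 1.58 in old libraries, on 10 to 27 and 2 to 5 reads (log2 difference -1.19, SE 0.36, adjusted p = 0.123 by limma). Its name carries the young label alone, and joined with the 2 kb region it abuts the difference was -1.02 (SE 0.32, adjusted p = 0.176 by limma).

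Over all members, 6 of 48 H3K27ac regions had every old library above every young one and 1 had the reverse, against 7.09% and 7.42% of all H3K27ac regions. Of the 6, 5 were in Cacna1c, as was the reverse one, a 2.5 kb region shared with Dcp1b at 5.88, 5.19 and 5.26 in young and 4.78, 3.93 and 3.57 in old libraries. The other was the 16 kb region on chromosome 8 from 84655001 to 84671000, which lies 14.8 kb beyond the Cacna1a body over Ier2 and Nacc1, with 34.3, 40.4 and 35.2 in young and 40.7, 51.9 and 44.3 in old libraries (log2 difference 0.31, SE 0.14, adjusted p = 0.473 by limma). The 5 in Cacna1c include the region known when the genes were chosen, and the 0.5 kb region at or under the floor of 3 reads in every young library. In H3K27me3, 1 of 39 regions had every old library higher and 5 had every old library lower, against 8.56% and 10.6% of all H3K27me3 regions. No member H3K27me3 region was called by limma, edgeR or DESeq2, and 5 of 39 had an unadjusted p under 0.05, as did 13.9% of all H3K27me3 regions. Of all H3K27me3 regions, 0.082% were called higher in old cells and 0.406% lower.

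**Figure D3:**
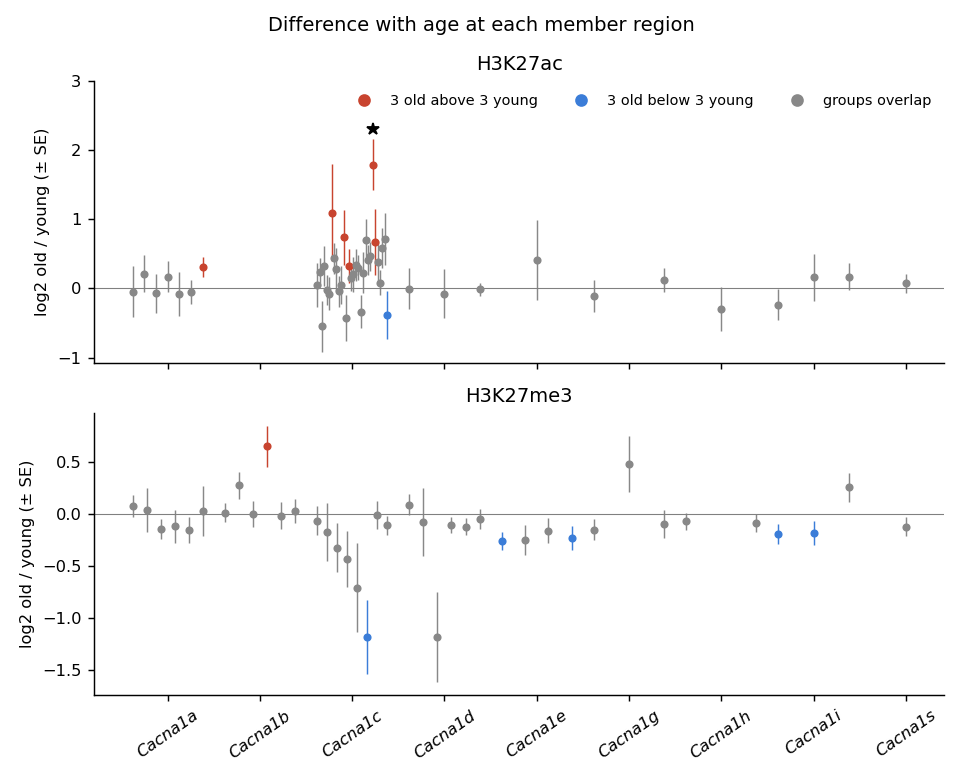
Log2 old over young with its SE for each region of the 9 genes, ordered by position within a gene; red and blue points are regions whose old libraries all lay above or all below the young ones, grey points overlapped, and the star marks an adjusted p under 0.05. Cacna1c holds 30 of the 48 H3K27ac regions and 6 of the 7 that are separated, which include the starred one known when the genes were chosen. The steepest negative H3K27me3 points, at -1.19, are short segments of Cacna1c and Cacna1d.

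Among the other L-type channels, Cacna1d (chromosome 14 from 30039939 to 30491455), which paces the sinus node and serves hearing, was level with age in H3K27ac. Its upstream TSS lay in a 59 kb H3K27ac region shared with Dcp1a, at 116, 102 and 102 in young and 108, 112 and 97.3 in old libraries (log2 difference -0.012, SE 0.096). H3K27me3 covered the rest of the gene, mainly in a 250 kb region, the longest of any member, at 513, 527 and 493 in young and 485, 442 and 501 in old libraries (log2 difference -0.10, SE 0.076, adjusted p = 0.582 by limma). Over its internal TSS H3K27me3 was 237, 233 and 240 against 234, 213 and 207 (log2 difference -0.12, SE 0.083). Summed over the window, H3K27me3 was 1041, 1044 and 1006 in young and 994, 979 and 968 in old libraries. These did not overlap, but the log2 difference was only -0.072 (SE 0.070, adjusted p = 0.673 by limma). A 2.5 kb segment labelled as young at the edge of the 250 kb region read -1.19 on 1 to 7 reads in the old libraries, and joined with its neighbours the difference was -0.11 (SE 0.076).

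Cacna1s (chromosome 1 from 136052750 to 136119822) lay in an 86.5 kb H3K27me3 region shared with Ascl5, at 242, 274 and 271 in young and 238, 267 and 220 in old libraries (log2 difference -0.12, SE 0.089, adjusted p = 0.585 by limma). The groups overlapped. Its only H3K27ac region was outside the gene body, over Kif21b, at 36.3, 39.8 and 40.5 against 39.5, 44.8 and 38.7 (log2 difference 0.076, SE 0.14).

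Of the presynaptic channels, Cacna1e (chromosome 1 from 154390731 to 154884501), which carries the R-type current, gave the largest H3K27me3 window difference of the members, which was not called. The scaled signal of its window was 304, 271 and 280 in young and 242, 233 and 254 in old libraries, so that every old library lay below every young one. The log2 difference was -0.23 (SE 0.079), with an adjusted p of 0.232 by limma, and it stayed between -0.26 and -0.18 when each library was left out in turn. All 4 H3K27me3 regions of the gene were lower in old cells, from -0.26 to -0.16, against a median of -0.0077 over all H3K27me3 regions. The 4 regions share the same libraries and are not independent. Of all H3K27me3 windows, 13.2% had, like that of Cacna1e, every old library below every young one. The 63.5 kb region over its TSSs near 154726356 was 147, 131 and 145 in young and 116, 119 and 117 in old libraries (log2 difference -0.26, SE 0.089, adjusted p = 0.176 by limma). H3K27ac amounted to a single 1 kb region of 1 to 12 reads, at 1.63, 0.577 and 3.95 in young and 0.797, 4.72 and 3.06 in old libraries, a difference not detectable at this depth.

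Cacna1b (chromosome 2 from 24603887 to 24763152), the N-type channel, had no H3K27ac region in its window. Its H3K27me3 window was 309, 288 and 312 in young and 304, 357 and 300 in old libraries, and it was the only member window with a positive H3K27me3 difference (0.075, SE 0.085, adjusted p = 0.720 by limma), which turned to -0.0028 without old replicate 2 and to -0.048 with signal as deposited. The TSS region was 72.9, 71.6 and 76.1 against 70.9, 91.0 and 65.6 (log2 difference 0.031, SE 0.11). The region with the largest summed signal, 47 kb across the 3′ end of the gene, was 102, 98.8 and 103 against 103, 108 and 96.0 (log2 difference 0.015, SE 0.092). A 7.5 kb region inside the gene, from 24692501 to 24700000, went the other way from most members, at 9.48, 9.25 and 7.06 in young and 14.8, 14.8 and 11.7 in old libraries. Every old library was above every young one, with a log2 difference of 0.65 (SE 0.20, adjusted p = 0.122 by limma).

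Cacna1a (chromosome 8 from 84388440 to 84640246), the P/Q-type channel, held 6 H3K27me3 and 7 H3K27ac regions in its window, 5 of the latter overlapping the body and none at a TSS. Its H3K27me3 window was 435, 498 and 517 in young and 415, 533 and 411 in old libraries (log2 difference -0.10, SE 0.10, adjusted p = 0.676 by limma). Over the TSS H3K27me3 was 159, 182 and 187 against 149, 179 and 152 (log2 difference -0.14, SE 0.096). The H3K27ac window was 95.4, 104 and 105 in young and 106, 126 and 104 in old libraries (log2 difference 0.14, SE 0.097, adjusted p = 0.651 by limma). The groups overlapped in each of these comparisons.

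No T-type channel had a called region or window. Cacna1g (chromosome 11 from 94408391 to 94474198) had H3K27ac over its TSS at 22.5, 24.8 and 28.0 in young and 25.9, 25.2 and 31.1 in old libraries (log2 difference 0.12, SE 0.17). The H3K27me3 region upstream, over Spata20 and Epn3, was 38.7, 41.6 and 37.1 against 36.2, 43.8 and 30.7 (log2 difference -0.097, SE 0.13). The H3K27me3 region with the largest summed signal of its window, which was lower per kb than the upstream one, reached only 0.195% of its length into the gene and lay over Abcc3, with a log2 difference of -0.15 (SE 0.10).

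Cacna1h (chromosome 17 from 25374285 to 25433783) had the densest H3K27me3 of the members, with a window mean of 1.64 reads per kb of region scaled to library size in young and 1.56 in old cells, in regions shared with neighbours such as Tekt4, Sstr5 and Tpsab1. Its TSS region was 418, 449 and 444 in young and 458, 435 and 351 in old libraries (log2 difference -0.085, SE 0.090). Its H3K27ac was 3 kb in all, at 8.82, 4.62 and 8.22 in young and 7.17, 4.72 and 5.10 in old libraries (log2 difference -0.30, SE 0.32). Cacna1i (chromosome 15 from 80287238 to 80398279) had 2 of 3 H3K27me3 regions with every old library below every young one. The one over its TSS was 138, 136 and 150 in young and 133, 132 and 107 in old libraries (log2 difference -0.19, SE 0.098, adjusted p = 0.392 by limma). Its H3K27ac region with the largest summed signal lay 9.22 kb beyond the gene, at 15.4, 26.5 and 24.7 against 21.9, 26.0 and 25.5 (log2 difference 0.17, SE 0.19).

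**Figure D4:**
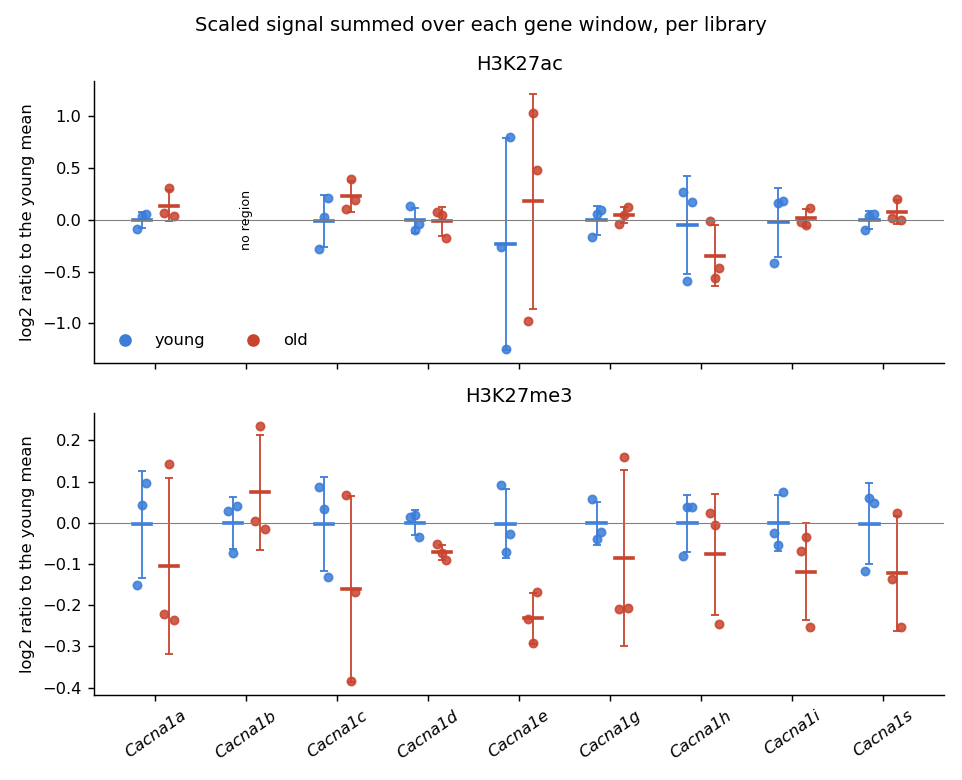
Scaled signal summed over each gene window in every library, as log2 of its ratio to the young mean, with the mean (bar) and SD (whiskers) of 3 young (blue) and 3 old (red) libraries. For H3K27me3 the old mean lies below the young mean in every gene but Cacna1b, and the groups are apart in Cacna1d and Cacna1e alone; for H3K27ac the groups overlap in all 8 genes with a region.

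As whole windows, no member was called in either mark by limma, edgeR or DESeq2, among 8 tested in H3K27ac and 9 in H3K27me3. DESeq2 gave no adjusted p for the H3K27ac windows of Cacna1e and Cacna1h. By limma 1 window in each mark (Cacna1c in H3K27ac and Cacna1e in H3K27me3) had an unadjusted p under 0.05. The Cacna1c window includes the region known when the genes were chosen. Over all protein-coding genes 0.341% of H3K27ac windows were called higher and 0.189% lower, and 0.118% and 0.276% of H3K27me3 windows. In H3K27ac 0 of 8 member windows had separate groups, where 10.8% of all windows had every old library higher and 4.81% every old library lower. In H3K27me3 2 of 9 had every old library lower and 0 every old library higher, where the shares over all windows were 13.2% and 6.46%. Of 9 H3K27me3 windows 8 were negative, beside a median of -0.040 over all windows, of which 40.2% were positive. The differences of the 8 ranged from -0.23 to -0.072. Every old H3K27me3 library also had a lower share of its reads in regions than every young one, and whether this plays a part was not tested.

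The balance of the marks was taken as log2 of the deposited H3K27ac signal over the deposited H3K27me3 signal of the same window and sample, matching the sample numbers of both marks. Since the tables were normalised separately, its level is relative and no test was made. Cacna1c had the balance nearest 0, at -0.13, -0.13 and 0.51 in young and 0.0064, 0.81 and 0.65 in old samples, which overlap. The young mean was 0.083 ± 0.37 and the old mean 0.49 ± 0.42 (SD, n = 3 each). The means differed by 0.40, beside a median difference of 0.063 over 12390 genes with both marks, and by 0.14 without the samples numbered 2. The Cacna1c window includes the region known when the genes were chosen, so this difference is a description and supports nothing else. Cacna1g (-1.92 ± 0.16), Cacna1a (-2.25 ± 0.22), Cacna1i (-2.37 ± 0.21), Cacna1s (-2.76 ± 0.21) and Cacna1d (-3.11 ± 0.30; young mean ± SD, n = 3 each) had windows weighted to H3K27me3, against a median of -0.51 over all genes in young cells. The ranges of 1 SD around neighbouring means among these 5 overlapped. Windows count regions shared with neighbouring genes in full, so these levels are not those of the gene bodies alone. In Cacna1g, regions 0.195% and 0% inside the body held 98.2 and 39.2 of a young mean scaled H3K27me3 signal of 146. The Cacna1s H3K27ac lay wholly outside the body, over Kif21b. The main Cacna1d H3K27ac region, shared with Dcp1a, was 22.0% inside the body. Cacna1h (-6.94 ± 0.74) and Cacna1e (-7.52 ± 1.51) were the most H3K27me3-weighted and the noisiest, since each rested on 1 thin H3K27ac region. The old minus young difference of the members other than Cacna1c ran from -0.24 in Cacna1h to 0.78 in Cacna1e, and the ages overlapped in all 8 genes. Leaving out the samples numbered 2 turned the difference to -0.098 in Cacna1d and to -0.53 in Cacna1e.

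**Figure D5:**
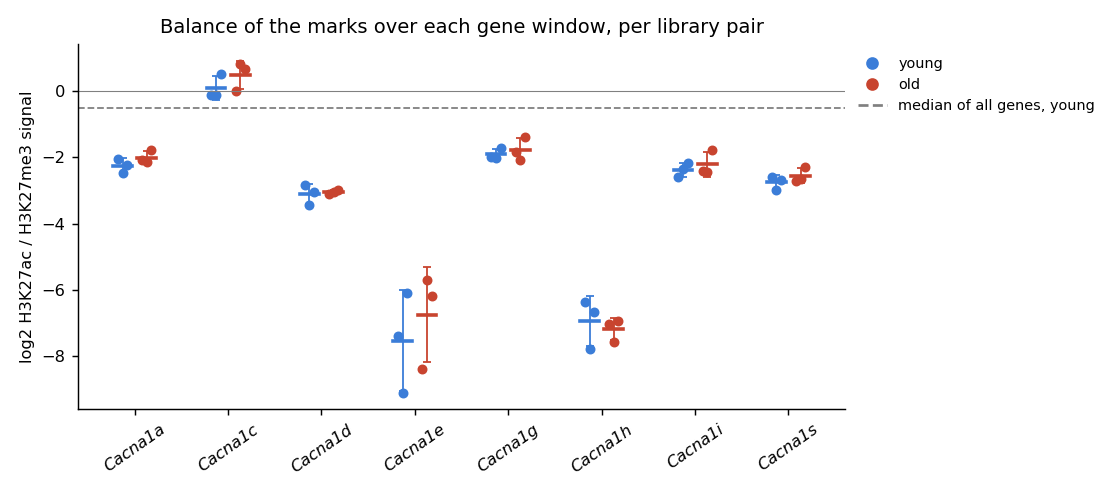
Log2 of summed H3K27ac over summed H3K27me3 deposited signal in each gene window for every young (blue) and old (red) sample, with mean (bar) and SD (whiskers); the dashed line is the young median of all genes, -0.51. Cacna1c alone lies near 0 and the ages overlap in every gene shown.

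Genes whose pattern over the 12 libraries, with each mark centred on its own mean, was most like that of Cacna1c were Txn1 (r = 0.95), Gm5105 (r = 0.94) and Lhfpl2 (r = 0.93) of 12411 compared. They were picked as the highest of these correlations, and the Cacna1c window includes the region known when the genes were chosen. The likeness is a description, and a shared regulation was not tested.

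The partner genes of the channels were examined from a list of 66, comprising auxiliary subunits, channel inhibitors, store-operated and internal-store channels, pumps, effectors and sodium channels. None of 57 H3K27ac windows or 54 H3K27me3 windows was called by limma. In each mark 9 had an unadjusted p under 0.05, where 10.9% of all H3K27ac windows and 14.5% of all H3K27me3 windows did. EdgeR called 1 in each mark, and DESeq2 called 0 in H3K27ac and 1 in H3K27me3. The medians were 0.027 for H3K27ac and -0.045 for H3K27me3, close to those of all windows (0.033 and -0.040). Of the H3K27ac windows, 8 had every old library higher and 2 every old library lower, while 1 H3K27me3 window had every old library higher and 10 every old library lower. The shares over all windows were 10.8% and 4.81% for H3K27ac and 6.46% and 13.2% for H3K27me3.

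Among auxiliary subunits, the beta subunit gene Cacnb3 had H3K27ac of 60.1, 55.4 and 58.5 in young and 73.3, 83.4 and 67.8 in old libraries (log2 difference 0.36, SE 0.11, adjusted p = 0.141 by limma). The gamma subunit genes Cacng8 and Cacng6, which are neighbours and may share regions, were lower in H3K27me3, Cacng8 at 87.3, 88.9 and 74.8 against 70.1, 51.2 and 62.4 (log2 difference -0.45, SE 0.12, adjusted p = 0.115 by limma). Cacng6 was 61.6, 65.6 and 53.4 against 47.8, 41.5 and 45.3 (log2 difference -0.42, SE 0.11, adjusted p = 0.128 by limma). Rem1, a small GTPase that inhibits these channels, was closest to a call in H3K27ac, at 39.9, 49.0 and 50.3 in young and 58.2, 70.8 and 64.7 in old libraries (log2 difference 0.48, SE 0.13, adjusted p = 0.0525 by limma). EdgeR called it (adjusted p = 0.0416).

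Itpr1, the inositol trisphosphate receptor that releases calcium from the endoplasmic reticulum, gave differences of opposite sign in the marks, with neither past the threshold by limma. Its H3K27me3 was 171, 170 and 212 in young and 135, 134 and 144 in old libraries (log2 difference -0.41, SE 0.094, adjusted p = 0.0681 by limma, 0.0385 by edgeR and 0.0243 by DESeq2). Over the gene body alone the difference was -0.85 (adjusted p = 0.00576 by limma). Its H3K27ac was 170, 171 and 170 in young and 208, 204 and 183 in old libraries (log2 difference 0.22, SE 0.079, adjusted p = 0.215 by limma). Scn2a, a neuronal sodium channel, was lower in H3K27ac at 3.59, 6.35 and 6.91 against 3.19, 2.36 and 3.06 (log2 difference -0.82, SE 0.40, adjusted p = 0.433 by limma), on 3 to 21 reads. Cacna1f was not called in either mark, with log2 differences of -0.18 (SE 0.41) in H3K27ac and -0.27 (SE 0.12, adjusted p = 0.305 by limma) in H3K27me3.

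With the 20 kb limit, the member region farthest from its gene was the 16 kb Cacna1a H3K27ac region at 14.8 kb. The nearest region left out was an H3K27ac region 21.1 kb from Cacna1c, on chromosome 6 from 119217501 to 119221000, with 13.3 ± 1.18 in young and 8.98 ± 1.51 in old libraries (SD, n = 3), a log2 difference of -0.55.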

How the data were processed

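CUT&RUN libraries of H3K27ac and H3K27me3 from MSCs of young and old mice (3 each) were compared within each mark. The submitters' processing notes name Bowtie2, Picard and the mm10/GRCm38 build; peak detection is not given in the sources used here. The deposited signal, called RPKM, equals whole reads relative to library size divided by a constant 0.5 kb, whatever the region's length. Whole reads were recovered from all values (100% within 0.01 read). Signal was scaled by relative log expression and fitted as log2(scaled signal + 0.5) against age with limma 3.58.1 (trend, robust), with Benjamini-Hochberg adjustment over all regions, or over all protein-coding genes (GENCODE) for sums over gene windows. edgeR 4.0.16 and DESeq2 1.42.0 on recovered reads, other scalings, pseudocounts, filters, windows and leave-one-out fits were alternatives. Fits were tested on simulated data. Members and lists were chosen with earlier results of these data known. The regions named are the called ones, the TSS and highest region of each gene and mark, and the 3 largest non-overlapping differences per mark, with up to 3 such partner genes per mark and the 3 genes most like Cacna1c. With 3 against 3, an exact permutation test cannot give a p under 0.10, and the floor of 3 reads covers counting error only.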

Additional observations from a re-analysis of the deposited data

How the results depend on the processing

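Signal as deposited shifted the median of all regions to -0.12 in H3K27ac and -0.13 in H3K27me3, and changes are read relative to that. The single called member region was kept with signal as deposited, TMM factors, edgeR, pseudocount 1, a minimum mean of 10 reads and the replicate block (adjusted p = 0.0135), and the count fell to 0 without trend and robust moderation (adjusted p = 0.411), with pseudocount 0.1 (0.0525) and with abutting regions joined. DESeq2 gave it no adjusted p (log2 difference 2.00). Leave-one-out counts ran from 0 to 1 for H3K27ac member regions and windows, and from 0 to 2 for partner windows in either mark. Partner H3K27ac windows gave 1 call with edgeR, with the filter, with the replicate block and with the gene body alone, each time Rem1. Partner H3K27me3 windows gave 5 with signal as deposited, among them Cacng6, Cacng8 and Itpr1, and 1 (Itpr1) with edgeR, DESeq2 or the gene body alone. No member H3K27me3 region or window was called under any alternative run. Same-number correlations between young and old samples ran from -0.0777 to 0.0656. The labels do not say whether young and old samples of a number were paired, and these correlations cannot decide it. The replicate block changed no other call, though it brought the Cacna1c H3K27ac window to an SE of 0.070 (adjusted p = 0.0566 by limma).

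None of the differences that reversed was called. With signal as deposited, H3K27ac windows read -0.069 (Cacna1g), -0.077 (Cacna1i) and -0.042 (Cacna1s), the highest H3K27ac regions of Cacna1c and Cacna1s -0.034 and -0.042, and in H3K27me3 the Cacna1b window -0.048 and its highest and TSS regions -0.11 and -0.092. The gene body alone gave -0.12 for Cacna1i H3K27ac. The Cacna1c TSS H3K27me3 region read 0.039 with edgeR and 0.024 with DESeq2. Leave-one-out values of H3K27ac windows ran from -0.061 to 0.068 (Cacna1d), -0.094 to 0.99 (Cacna1e), -0.031 to 0.097 (Cacna1g) and -0.15 to 0.14 (Cacna1i). Those of H3K27ac regions ran from -0.19 to 0.28 (Cacna1c, highest), -0.053 to 0.051 (Cacna1d), -0.094 to 0.99 (Cacna1e) and -0.069 to 0.32 (Cacna1i). Those of H3K27me3 ran from -0.0028 to 0.12 (Cacna1b window), -0.12 to 0.013 (Cacna1h window), -0.022 to 0.063 and -0.10 to 0.13 (Cacna1b, highest and TSS), -0.078 to 0.11 (Cacna1c TSS), -0.22 to 0.029 (Cacna1g upstream) and -0.16 to 0.034 (Cacna1h TSS). The causes were not tested. The balance differences moved by less than the pooled SD of the ages in all 40 alternative values, but leaving out samples of 1 number gave 0.14 to 0.54 in Cacna1c, -0.098 to 0.22 in Cacna1d and -0.53 to 1.65 in Cacna1e.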
